A study of Mus musculus with 32 samples.

Results

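The nuclear receptors CAR and PXR, the cytochrome P450 enzymes they control and the genes that supply those enzymes with electrons and haem were followed in mouse liver. The 9 genes were Nr1i3 (CAR), Nr1i2 (PXR), Cyp2b10, Cyp2b9, Cyp2b13, Cyp3a11, Cyp2c29, Por and Alas1. They were found on the arrays through the RefSeq identifier of each probe, with its version dropped, which gave 12 of 55681 probes. Of the 9 genes, 8 were among the 23107 genes tested. Cyp2b13 was well above background on 1 of 32 arrays and was not tested.

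All 32 mice were male wild-type C57BL/6, housed alone, and each gave liver RNA to 1 one-colour Agilent array. In the chronic jet lag groups (CJ, 16 mice), animals were moved from the age of 4 weeks between rooms whose lights came on 8 h apart. In the steady schedule groups (NS, 16 mice), lights stayed at 12 h on and 12 h off. Each schedule was sampled at 30 and at 12 weeks of age, at zeitgeber times ZT2, ZT10 and ZT18, counted in hours from light onset. There were 2 mice in each ZT2 group and 3 mice in each ZT10 and ZT18 group, so that 12 groups were compared. For CJ mice the sources used here do not state how long before collection the last shift took place. Older CJ mice had also spent longer under jet lag. Age and length of jet lag therefore cannot be told apart in the age differences of CJ livers.

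CAR and PXR bind DNA as partners of RXR and switch on genes that clear drugs, steroids and bile acids. P450 enzymes carry haem and take their electrons from the reductase encoded by Por. ALAS1 makes the first, rate-limiting precursor of haem in hepatocytes. In mice that lack the PAR bZIP factors DBP, TEF and HLF, knockout studies reported lower Nr1i3, Por and Alas1, and these factors cycle with the liver clock.

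Sequences upstream of 5 of the genes are shown because they carry what the array cannot show. This is how close the Cyp2b copies are, and which of the searched motifs the sequences hold. Each is the 250 bases before the gene's start on its own strand, from RefSeq (GRCm38.p6), printed 5′ to 3′. Capitals mark a motif match. The windows lie at chr7:25897408-25897657 for Cyp2b10, chr7:26173159-26173408 for Cyp2b9, chr7:26061245-26061494 for Cyp2b13, chr1:171213720-171213969 for Nr1i3 and chr5:135688895-135689144 for Por, all on the plus strand.
Cyp2b10: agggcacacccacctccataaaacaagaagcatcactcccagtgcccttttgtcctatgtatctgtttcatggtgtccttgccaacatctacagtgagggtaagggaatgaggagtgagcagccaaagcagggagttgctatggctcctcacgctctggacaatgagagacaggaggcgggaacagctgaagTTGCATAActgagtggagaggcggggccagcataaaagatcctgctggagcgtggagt
Cyp2b9: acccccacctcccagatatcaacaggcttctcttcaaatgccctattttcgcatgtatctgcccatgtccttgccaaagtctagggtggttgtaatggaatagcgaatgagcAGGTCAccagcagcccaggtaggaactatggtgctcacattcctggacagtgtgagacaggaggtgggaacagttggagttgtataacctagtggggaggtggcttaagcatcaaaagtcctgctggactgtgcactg
Cyp2b13: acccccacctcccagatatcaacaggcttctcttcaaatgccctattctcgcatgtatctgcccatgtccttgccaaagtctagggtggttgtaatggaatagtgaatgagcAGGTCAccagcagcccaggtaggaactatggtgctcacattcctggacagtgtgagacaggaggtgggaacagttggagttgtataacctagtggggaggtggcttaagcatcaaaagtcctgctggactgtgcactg
Nr1i3: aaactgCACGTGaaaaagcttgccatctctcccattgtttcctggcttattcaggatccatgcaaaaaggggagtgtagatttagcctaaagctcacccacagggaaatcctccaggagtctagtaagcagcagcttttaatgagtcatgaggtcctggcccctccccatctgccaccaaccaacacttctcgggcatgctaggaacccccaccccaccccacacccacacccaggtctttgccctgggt
Por: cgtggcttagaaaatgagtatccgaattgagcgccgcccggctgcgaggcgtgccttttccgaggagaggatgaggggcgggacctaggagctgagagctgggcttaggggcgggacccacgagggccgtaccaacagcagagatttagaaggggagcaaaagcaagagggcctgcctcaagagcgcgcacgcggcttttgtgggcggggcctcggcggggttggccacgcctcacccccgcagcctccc

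The Cyp2b9 and Cyp2b13 windows were identical at 99.2% of 250 aligned positions and differed at 2 bases. Counted from 1 at the 5′ end, with the Cyp2b9 base first, these were T48C and C104T. Cyp2b10 aligned to either of them at 71.4% identity (187 of 262 columns of a global alignment with gaps), whereas the other 33 pairs of members lay between 38.8% and 52.8%. Matches were searched on both strands, with motifs chosen after the windows had been looked at. The D-box TTATGTAA or TTACGTAA, the site class of the PAR bZIP factors, was in 0 of the members' windows and in 0.819% and 0.113% of all 32851 windows of the same length. TTATGCAA, which differs from the D-box TTATGTAA at a single base, lay on the opposite strand 58 bases before the start of Cyp2b10. It was in 0.694% of all windows, and which factors bind it was not tested. The E-box CACGTG, bound by CLOCK and BMAL1, lay 244 bases before the start of Nr1i3 and in 6.02% of all windows. AGGTCA, the core hexamer of many nuclear receptor sites, was in the windows of Cyp2b9 and Cyp2b13 (138 bases before the start in each), Cyp3a11 and Cyp2c29, and in 14.0% of all windows. No window held more than 1 match, and the windows of Por, Nr1i2 and Alas1 held none of these letters.

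Levels below are the log2 signal of a probe after subtraction of the log2 75th percentile of its array, so 0 is the signal that 75% of probes stay below, and levels of different probes cannot be set against each other. Fold changes and differences come from 1 limma fit over all arrays with the slide as a random block, and can differ slightly from differences of the plain group means. A gene passed the test at a Benjamini-Hochberg adjusted p under 0.05 over all 23107 genes. Between 43.4% and 58.1% of probes were well above background per array. Hepatocyte markers averaged 8.37 to 8.98 on the 32 arrays, and 8 of 8 were tested. RNA of other tissue was present on part of the arrays: 7 of 12 pancreatic acinar markers were tested and their mean ran from -2.37 to 4.68, above 0 on 10 arrays, while 11 of 12 skeletal muscle markers were tested and their mean ran from -4.38 to 3.93, above 0 on 14 arrays. In whole liver, fewer cells of a type and less RNA per cell cannot be told apart.

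Por and Alas1 had the widest schedule differences of the 3-time mean that passed the test, and Cyp2b10 had a wider one at a single time. Por was higher in CJ than in NS livers at both ages, Alas1 at 30 weeks, and Nr1i2 at 30 weeks by a smaller step. Cyp2b10 varied over the day in NS livers at both ages and was the only 1 of the 8 tested genes that passed the test between ages in NS livers. Cyp3a11 and Cyp2c29, which encode abundant P450s, had group means that spanned 1.03 and 0.53 on the log2 scale over the 12 groups, and the schedule and age differences of Cyp3a11 depended on the probe read.

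Time of day passed the test for 2 of 8 genes in CJ livers at 30 weeks, where 3.62% of all genes did, and for 3 of 8 in NS livers at 30 weeks, where 11.2% did. At 12 weeks it passed for 4 of 8 genes in CJ livers (5.70% of all genes) and 5 of 8 in NS livers (17.4% of all genes). The 5 include Cyp2b9, which entered the test only through groups of 30 weeks. In NS livers of 12 weeks its probe was well above background on 1 of 2 arrays at ZT2, 0 of 3 at ZT10 and 2 of 3 at ZT18. The median range over the 3 times was 0.92 in CJ and 1.07 in NS livers at 30 weeks, and 0.89 in CJ and 1.38 in NS livers at 12 weeks. Over all genes it was 0.27, 0.31, 0.29 and 0.34 in the same order. The difference of the daily profiles between schedules passed the limma test for 0 of 8 genes at either age. At 30 weeks 1.97% of all genes passed that test, and at 12 weeks 1.90%. At an unadjusted p under 0.05 there were 2 genes at 30 weeks (Cyp2b10 and Cyp2c29) and 3 at 12 weeks (Nr1i2, Cyp2b10 and Alas1).

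The mean over the 3 times was higher in CJ livers for 3 of 8 genes at 30 weeks, where 6.25% of all genes passed, 1.77% higher and 4.48% lower. At 12 weeks it was higher for 1 of 8 genes, where 4.44% of all genes passed, 2.15% higher and 2.29% lower. The median difference of the 8 genes was 0.13 at 30 weeks and 0.18 at 12 weeks, beside -0.02 and 0.03 for all genes. Between ages, 1 of 8 genes was lower at 30 weeks in CJ livers, where 5.30% of all genes passed, 2.09% higher and 3.21% lower. In NS livers 1 of 8 was higher at 30 weeks, where 0.900% of all genes passed, 0.580% higher and 0.320% lower. At single times the schedule difference at 30 weeks passed for 1 of 8 genes at ZT2 (1.36% of all genes), 0 at ZT10 (0.736%) and 1 at ZT18 (3.48%). At 12 weeks it passed for 0 at ZT2 (0.255%), 1 at ZT10 (1.71%) and 1 at ZT18 (2.83%). Where limma called 0, the count at an unadjusted p under 0.05 was 2 at ZT10 of 30 weeks and 1 at ZT2 of 12 weeks. The median age difference of the 8 genes was 0.05 in CJ and -0.01 in NS livers, beside -0.04 and 0.01 for all genes. The 9 genes were chosen with results of these data known, so these shares describe the genes and are no independent evidence.

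**Figure D1:**
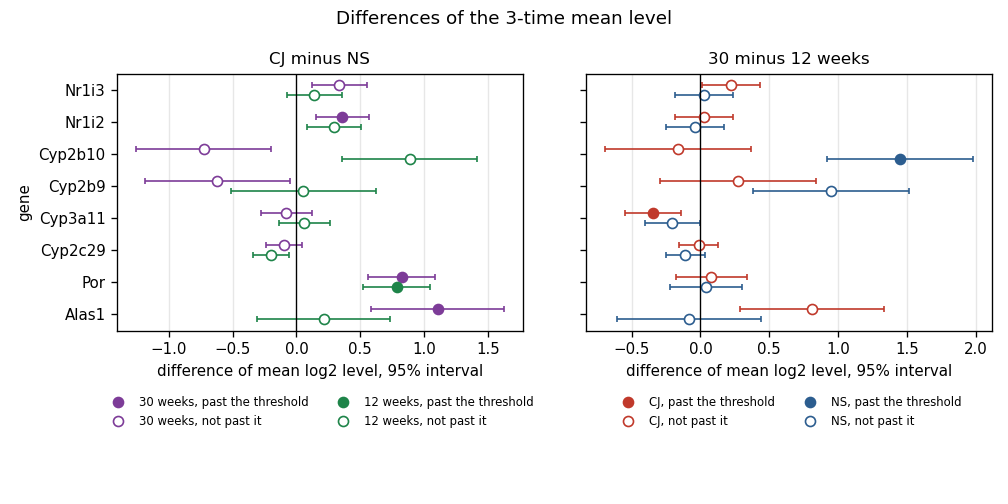
Difference of the 3-time mean log2 level for each tested gene (rows), with its 95% interval, CJ minus NS on the left (30 weeks above 12 weeks) and 30 minus 12 weeks on the right (CJ above NS). Filled points passed the test: Por at both ages, Alas1 and Nr1i2 at 30 weeks on the left, and Cyp2b10 in NS and Cyp3a11 in CJ livers on the right.

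Nr1i3 encodes CAR, which is held in the cytoplasm until an activator releases it. At 12 weeks its level was lowest at ZT2 in either schedule. In CJ livers it was 3.61 and 3.82 at ZT2, 4.53, 4.37 and 4.88 at ZT10, and 4.46, 4.80 and 5.0 at ZT18. In NS livers it was 3.71 and 3.88 at ZT2, 4.44, 4.68 and 4.59 at ZT10, and 4.26, 4.15 and 4.47 at ZT18. In either schedule no ZT2 liver reached any ZT10 or ZT18 liver at 12 weeks. The range over the 3 times was 1.00 in CJ livers (limma, adjusted p = 0.00617) and 0.83 in NS livers (limma, adjusted p = 0.0157). The CJ call was lost without mouse 1 of CJ ZT2 (adjusted p = 0.113) and without the 10 arrays rich in acinar RNA (range 0.84, adjusted p = 0.237). With the slide as a fixed block neither held (0.96 in CJ, adjusted p = 0.0735, and 0.90 in NS livers, adjusted p = 0.0582). The NS call was lost without mouse 1 of NS ZT2 (adjusted p = 0.119) and without the same arrays (0.80, adjusted p = 0.0569).

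At 30 weeks the ZT2 livers of the schedules separated. Nr1i3 was 4.73 and 4.37 in CJ livers and 3.86 and 3.70 in NS livers at ZT2. It was 4.67, 4.76 and 4.89 in CJ livers and 4.03, 4.54 and 4.90 in NS livers at ZT10, and 4.43, 4.31 and 4.52 in CJ livers and 4.52, 4.24 and 4.56 in NS livers at ZT18. The groups overlapped at ZT10 and ZT18. The range over the day was 0.34 in CJ and 0.62 in NS livers, and neither passed the test (limma, adjusted p = 0.511 and 0.0716). The mean difference between schedules was 0.34 ± 0.10 (SE) at 30 weeks (limma, adjusted p = 0.0546) and 0.14 ± 0.10 at 12 weeks (adjusted p = 0.471). The 30-week difference passed in 5 of 12 alternatives. The second Nr1i3 probe followed the brighter one over the 12 group means with r = 0.977, and on it the 30-week difference passed (0.37, adjusted p = 0.0436).

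Nr1i2 encodes PXR, a receptor with a wide pocket that steroids and many drugs fill. At 30 weeks it was 3.49 and 3.03 in CJ livers and 2.96 and 2.71 in NS livers at ZT2. It was 3.58, 3.73 and 3.93 in CJ livers and 3.43, 2.76 and 3.90 in NS livers at ZT10, and 3.70, 3.75 and 3.85 in CJ livers and 3.16, 3.53 and 3.77 in NS livers at ZT18. CJ livers lay above NS livers at ZT2, and the groups overlapped at the later times. The mean difference was 0.36 ± 0.10 (SE), a 1.28-fold higher level (limma, adjusted p = 0.0352). It passed in 6 of 11 alternatives and in 23 of 32 fits that left out 1 liver each; without the acinar-rich arrays it was 0.23 (adjusted p = 0.342).

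At 12 weeks Nr1i2 was 2.90 and 3.04 in CJ livers and 2.86 and 3.20 in NS livers at ZT2, which overlapped. At ZT10 it was 3.64, 3.80 and 4.07 in CJ livers and 3.53, 3.45 and 3.30 in NS livers, and at ZT18 it was 3.90, 4.03 and 3.73 in CJ livers and 3.46, 3.34 and 3.18 in NS livers. Every CJ liver lay above every NS liver at these later times. The 3-time mean differed by 0.30 ± 0.10 (SE), which did not pass (limma, adjusted p = 0.0951). The daily range was 0.93 in CJ livers (limma, adjusted p = 0.00702) and 0.38 in NS livers (adjusted p = 0.359), and the difference of the profiles did not pass (adjusted p = 0.327). The CJ call was lost without either mouse of CJ ZT2 (highest adjusted p = 0.0980) and without the acinar-rich arrays (0.75, adjusted p = 0.205).

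**Figure D2:**
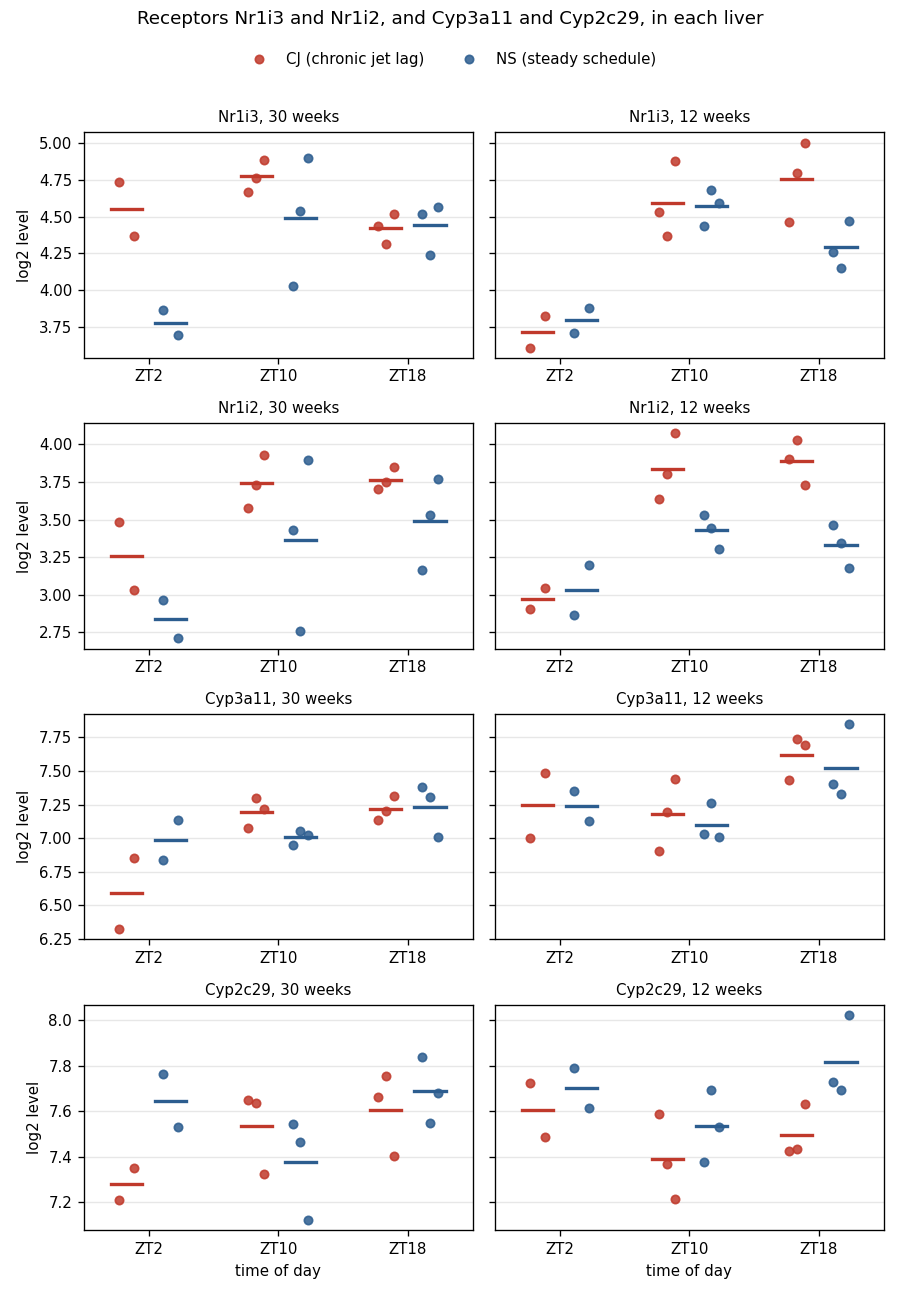
Log2 level of Nr1i3, Nr1i2, Cyp3a11 and Cyp2c29 (rows) in each liver by time of day, at 30 weeks (left) and 12 weeks (right), with CJ red and left of NS blue at each time. Each point is 1 mouse and each bar a group mean. The ZT2 livers lie lowest for Nr1i3 in both schedules at 12 weeks, and Cyp3a11 and Cyp2c29 move by at most 1.03 and 0.53 between group means.

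Cyp2b10 encodes the P450 used as the classic readout of CAR activity in mouse liver. In NS livers it peaked at ZT18 at both ages. At 30 weeks NS livers had 2.94 and 2.34 at ZT2, 2.22, 1.68 and 2.78 at ZT10, and 4.60, 4.24 and 3.80 at ZT18. At 12 weeks NS livers had 1.28 and 1.20 at ZT2, 0.26, 0.11 and 0.32 at ZT10, and 4.18, 2.49 and 3.09 at ZT18. The lowest ZT18 liver lay above every ZT2 and ZT10 liver of its age. The NS range was 2.28 at 30 weeks (limma, adjusted p = 0.00325) and 2.72 at 12 weeks (limma, adjusted p = 0.000531). The 12-week call held under all 10 alternatives run and in all 32 fits that left out 1 liver each.

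Skeletal muscle markers moved with that peak: their mean was above 0 on all 6 NS ZT18 arrays, 0.85 to 2.56 at 30 weeks and 0.82 to 1.86 at 12 weeks. It was below 0 on all 6 NS ZT10 arrays, between -3.84 and -1.19 at 30 weeks and between -4.28 and -1.37 at 12 weeks. With the acinar and muscle marker means as covariates, the range of Cyp2b10 in NS livers was 1.93 at 30 weeks (adjusted p = 0.1) and 2.52 at 12 weeks (adjusted p = 0.00910).

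In CJ livers Cyp2b10 was 0.80 and 1.82 at ZT2, 3.02, 1.74 and 2.44 at ZT10, and 3.48, 3.46 and 2.79 at ZT18 at 30 weeks. At 12 weeks CJ livers had 1.39 and 2.70 at ZT2, 2.24, 3.54 and 2.03 at ZT10, and 2.14, 2.82 and 3.18 at ZT18, and the times overlapped. The CJ range was 2.05 at 30 weeks (limma, adjusted p = 0.0483), a call that held in 11 of 32 fits that left out 1 liver and in 3 of 10 alternatives. The 12-week range was 0.51 (adjusted p = 0.811). The difference of the profiles at 12 weeks had an adjusted p of 0.0672, with 4 of 32 fits without 1 liver past the threshold, and at 30 weeks of 0.232.

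The fitted schedule difference of Cyp2b10 was above 0 at some times and ages and below 0 at others. Only that at ZT10 of 12 weeks passed the test. At ZT10 of 12 weeks all CJ livers lay above all NS livers, and the fitted difference was 2.22 ± 0.44 (SE; limma, adjusted p = 0.0127). In this single-time comparison 0.861% of all genes were higher. The call was lost without mouse 2 of CJ ZT10 or mouse 3 of NS ZT10 (highest adjusted p = 0.111) and with the slide as a fixed block (2.02, adjusted p = 0.0665). With that block 92 of 23107 genes passed this comparison, against 395 in the main fit. Leaving out the acinar-rich arrays removed 2 of these 3 CJ livers, and the difference was then 1.80. The acinar marker mean ran from -1.91 to 4.68 in these CJ livers and from -2.06 to -0.47 in these NS livers. The muscle marker mean ran from -0.16 to 1.65 in these CJ livers and from -4.28 to -1.37 in these NS livers. With both marker means as covariates the difference was 2.11 (adjusted p = 0.182), in a fit where 6 of 23107 genes passed. On the slide that held both schedules at that time the difference was 1.91.

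At 30 weeks CJ livers lay below NS livers at ZT2 and at ZT18 without overlap, and the groups overlapped at ZT10. The fitted differences were -1.49 ± 0.55 at ZT2 and -1.15 ± 0.44 at ZT18 (SE), and neither passed (limma, adjusted p = 0.207 and 0.161). The ZT2 value was -0.77 without CJ ZT2 mouse 1 and -2.21 without CJ ZT2 mouse 2. Hepatocyte markers averaged 8.37 to 8.45 in CJ and 8.69 to 8.70 in NS livers at this ZT2. At this ZT18 pericentral hepatocyte markers averaged 4.08 to 4.13 in CJ and 4.22 to 4.51 in NS livers. Kupffer cell markers there averaged 4.16 to 4.75 in CJ and 3.44 to 4.10 in NS livers. The part of these markers in the Cyp2b10 differences was not tested. The 3-time mean differed by -0.73 ± 0.26 at 30 weeks (adjusted p = 0.0989) and by 0.89 ± 0.26 at 12 weeks (adjusted p = 0.0504). Among the 32 fits without 1 liver the 30-week difference passed in 1, that without CJ ZT2 mouse 2 (-0.97, adjusted p = 0.0348), and the 12-week difference in 7. The difference between these 2 effects was -1.61, with an adjusted p of 0.106; 0.00866% of all genes passed that test of schedule by age. In NS livers Cyp2b10 was higher at 30 than at 12 weeks by 1.45 ± 0.26 (SE), a 2.73-fold change (limma, adjusted p = 0.00374). This age difference held in all 32 fits that left out 1 liver (1.29 to 1.62) and under all 11 alternatives (1.29 to 1.59). In CJ livers the age difference was -0.16 ± 0.26 (adjusted p = 0.751).

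Cyp2b9 and Cyp2b13 are close copies of Cyp2b10 that female mouse liver expresses more than male liver. The Cyp2b9 probe was well above background on 20 of 32 arrays, and on none of the arrays of 2 groups. In NS livers of 12 weeks it was -4.07 and -3.57 at ZT2, -4.06, -4.67 and -4.90 at ZT10, and -1.83, -3.47 and -2.19 at ZT18. All 3 ZT18 livers lay above all ZT2 and ZT10 livers. The range was 1.94 (limma, adjusted p = 0.0175). None of the NS ZT10 arrays detected it well above background, so its level there is uncertain. ZT10 values were raised to the lowest level of any probe well above background on their array where they lay below it. The ZT18 mean was then 2.86-fold higher. This is no strict bound, since that floor is not this probe's own limit and 2 of 3 ZT18 arrays were well above background. The call was lost without NS ZT10 mouse 3, NS ZT18 mouse 1 or NS ZT18 mouse 3 (highest adjusted p = 0.0911), without the acinar-rich arrays (2.49, adjusted p = 0.0569), with the slide as a fixed block (1.77, adjusted p = 0.130) and with the marker covariates (1.56, adjusted p = 0.130). In the values of the authors' deposited table the range was 0.62.

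In CJ livers of 12 weeks Cyp2b9 was -4.00 and -4.31 at ZT2, -3.43, -2.94 and -4.05 at ZT10, and -3.69, -2.96 and -2.68 at ZT18. At 30 weeks it was -4.92 and -3.64 in CJ and -3.02 and -3.32 in NS livers at ZT2, and -2.26, -3.77 and -2.91 in CJ and -3.32, -3.59 and -2.34 in NS livers at ZT10. At ZT18 it was -2.29, -2.52 and -2.87 in CJ and -1.18, -1.67 and -2.46 in NS livers, the highest group means of either schedule at that age. The ranges at 30 weeks were 1.92 in CJ and 1.46 in NS livers (limma, adjusted p = 0.0835 and 0.0702). Over the 12 group means Cyp2b9 followed Cyp2b10 with r = 0.929, as a description, since both were read on the same arrays. Whether the Cyp2b9 probe also binds Cyp2b10 RNA was not tested, since probe sequences were not used here. The Cyp2b13 probe gave levels between -6.08 and -2.78, and 31 of 32 were not well above background. Signal was thus seen on 20 arrays for the Cyp2b9 probe and on 1 for the Cyp2b13 probe. Levels of different probes cannot be set against each other, so whether the 2 genes differ in expression was not tested.

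Cyp3a11 encodes the main PXR-responsive P450 of mouse liver and has several close relatives. Its group means ran from 6.59 in CJ ZT2 livers of 30 weeks to 7.62 in CJ ZT18 livers of 12 weeks. At 30 weeks it was 6.32 and 6.85 in CJ and 6.84 and 7.14 in NS livers at ZT2, and 7.14 to 7.31 in CJ and 7.01 to 7.38 in NS livers at ZT18. At 12 weeks it was 7.0 and 7.49 in CJ and 7.35 and 7.13 in NS livers at ZT2, and 7.43 to 7.74 in CJ and 7.33 to 7.85 in NS livers at ZT18. The schedules overlapped at ZT2 and ZT18 of both ages. The schedule difference was -0.08 at 30 weeks (95% interval -0.28 to 0.12) and 0.06 at 12 weeks (-0.14 to 0.26), and neither passed the test. At ZT10 of 30 weeks every CJ liver (7.07, 7.30 and 7.21) lay above every NS liver (6.95, 7.05 and 7.02), by 0.22 ± 0.17 in the fit (adjusted p = 0.655). In CJ livers it was lower at 30 than at 12 weeks by 0.34 ± 0.10 (limma, adjusted p = 0.0398), a call that held under 1 of 12 alternatives and in 22 of 32 fits without 1 liver.

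The 2 probes of Cyp3a11 followed each other with r = 0.715 over the group means, less closely than those of Nr1i3 and Alas1, and gave different schedule and age results. On the dimmer probe, 12-week livers had 4.33 and 3.90 in CJ and 4.89 and 4.71 in NS livers at ZT2, and 4.13, 4.02 and 4.06 in CJ and 4.65, 4.70 and 4.64 in NS livers at ZT10. CJ livers lay below NS livers at both times without overlap, and the groups overlapped at ZT18. The 12-week schedule difference on that probe was -0.49 (limma, adjusted p = 0.0412), against 0.06 on the brighter probe. The age difference in CJ livers was -0.07 on that probe (adjusted p = 0.797), against -0.34 on the brighter one. Which probe follows Cyp3a11 RNA more closely was not tested.

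Cyp2c29 encodes a P450 of the large Cyp2c family that CAR activators raise. Its group means ran from 7.28 in CJ ZT2 livers of 30 weeks to 7.82 in NS ZT18 livers of 12 weeks. At ZT18 of 12 weeks it was 7.43, 7.43 and 7.63 in CJ and 7.73, 7.69 and 8.02 in NS livers, with every CJ liver lower. At ZT2 of 30 weeks it was 7.21 and 7.35 in CJ and 7.76 and 7.53 in NS livers, again without overlap. The mean of the hepatocyte markers was also lower in these CJ livers without overlap. These markers averaged 8.57 to 8.71 in CJ and 8.73 to 8.98 in NS livers at ZT18 of 12 weeks. At ZT2 of 30 weeks they averaged 8.37 to 8.45 in CJ and 8.69 to 8.70 in NS livers. Hnf4a, a marker of that list, had a higher 3-time mean in CJ livers of 30 weeks. Kupffer cell, cholangiocyte and skeletal muscle markers also separated the schedules at ZT2 of 30 weeks. The part of these markers in the Cyp2c29 differences was not tested. Over the 32 livers Cyp2c29 ran from 7.12 to 8.02. The 3-time mean differed by -0.10 ± 0.07 at 30 weeks (adjusted p = 0.456) and by -0.20 ± 0.07 at 12 weeks (adjusted p = 0.0986), and no comparison of Cyp2c29 passed the test. The 12-week difference passed in 3 of 11 alternatives: normexp (-0.25, adjusted p = 0.0357), the slide as a fixed block (-0.21, adjusted p = 0.0484) and the values of the authors' deposited table (-0.27, adjusted p = 0.00786). It also passed in 1 of 32 fits without 1 liver (without CJ ZT2 mouse 1, adjusted p = 0.0434). Time of day in NS livers of 30 weeks passed in 1 of 10 alternatives, the authors' deposited table (range 0.33, adjusted p = 0.0313).

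Por encodes the reductase that hands electrons from NADPH to every microsomal P450. At each of the 3 times and both ages, every CJ liver had more Por than every NS liver. At 30 weeks it was 7.02 and 5.44 in CJ and 4.90 and 5.06 in NS livers at ZT2. At ZT10 it was 7.72, 7.49 and 7.48 in CJ and 6.99, 7.24 and 7.25 in NS livers, and at ZT18 it was 7.43, 7.47 and 7.42 in CJ and 6.58, 6.51 and 6.77 in NS livers. The widest single liver in this set was CJ ZT2 mouse 1, which lay closer to the later times than to its ZT2 mate.

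At 12 weeks Por was 5.59 and 6.05 in CJ and 4.96 and 5.06 in NS livers at ZT2. It was 7.62, 7.46 and 7.81 in CJ and 7.27, 7.16 and 6.95 in NS livers at ZT10, and 7.44, 7.66 and 7.58 in CJ and 6.46, 6.45 and 6.67 in NS livers at ZT18. The level in NS livers was lower at ZT18 than at ZT10, whereas the CJ livers of these times overlapped. Over the 3 times CJ livers were higher by 0.82 ± 0.13 at 30 weeks (SE; 1.77-fold; limma, adjusted p = 0.000345) and by 0.78 ± 0.13 at 12 weeks (1.72-fold; limma, adjusted p = 0.00148). Both calls held in all 32 fits that left out 1 liver. Under the alternatives the 30-week difference ran from 0.62 to 0.90 and passed in 11 of 11, and the 12-week difference ran from 0.67 to 0.83 and passed in 10 of 11. The exception was the fit without the acinar-rich arrays, which left 22 arrays (0.83, adjusted p = 0.0716). The acinar marker mean of 12-week livers ran from -2.17 to 4.68 in CJ and from -2.37 to 1.82 in NS livers.

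Within the 4 slides that held both schedules of 1 time and age, Por differed by 0.47 at ZT10 and 0.91 at ZT18 of 30 weeks, and by 0.67 at ZT10 and 1.20 at ZT18 of 12 weeks. Among single times, the difference passed at ZT2 of 30 weeks (1.23 ± 0.27, adjusted p = 0.0187, where 0.441% of all genes were higher) and at ZT18 of 12 weeks (1.01 ± 0.21, adjusted p = 0.00999, where 0.943% were higher). The ZT2 call was lost without either NS ZT2 mouse or without CJ ZT2 mouse 1, when the difference was 0.49 (adjusted p = 0.456), without the acinar-rich arrays (1.24, adjusted p = 0.119) and with the slide as a fixed block (1.21, adjusted p = 0.0706). In these ZT2 livers Kupffer cell markers (5 of 5 tested) averaged 3.98 to 4.13 in CJ and 3.70 to 3.80 in NS livers. Hepatocyte markers averaged 8.37 to 8.45 in CJ and 8.69 to 8.70 in NS livers, and cholangiocyte markers -2.39 to -1.94 in CJ and -1.50 to -1.31 in NS livers. Skeletal muscle markers averaged -4.38 to -4.14 in CJ and -4.09 to 0.40 in NS livers. The ZT18 call was lost without NS ZT18 mouse 1 (adjusted p = 0.0713) and without the acinar-rich arrays (0.82, adjusted p = 0.353). In those ZT18 livers hepatocyte markers averaged 8.57 to 8.71 in CJ and 8.73 to 8.98 in NS livers. The part of these markers in the differences was not tested.

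Por was the only member whose daily change passed the test in all 4 sets. Its range over the 3 times was 1.31 in CJ livers (limma, adjusted p = 0.00379) and 2.06 in NS livers (limma, adjusted p = 1.47e-05) at 30 weeks. The 12-week range was 1.90 in CJ livers (adjusted p = 7.77e-05) and 2.22 in NS livers (adjusted p = 5.24e-06). In all 4 sets the lowest mean was at ZT2 and the highest at ZT10. The NS calls held in all 32 fits that left out 1 liver and under all 10 alternatives. The CJ call at 30 weeks was lost without CJ ZT2 mouse 2 (0.57, adjusted p = 0.270), and both CJ calls were lost without the acinar-rich arrays (1.49 at 30 weeks, adjusted p = 0.0981, and 1.75 at 12 weeks, adjusted p = 0.0958). The 30-week CJ call was also lost with the marker covariates (1.27, adjusted p = 0.0581). The difference of the profiles between schedules did not pass (adjusted p = 0.533 at 30 weeks and 0.633 at 12 weeks), except at 30 weeks without CJ ZT2 mouse 2 (adjusted p = 0.00148). The age difference was 0.08 in CJ (95% interval -0.18 to 0.34) and 0.04 in NS livers (-0.22 to 0.30). Without CJ ZT2 mouse 2 it was 0.33 in CJ livers (adjusted p = 0.0231).

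**Figure D3:**
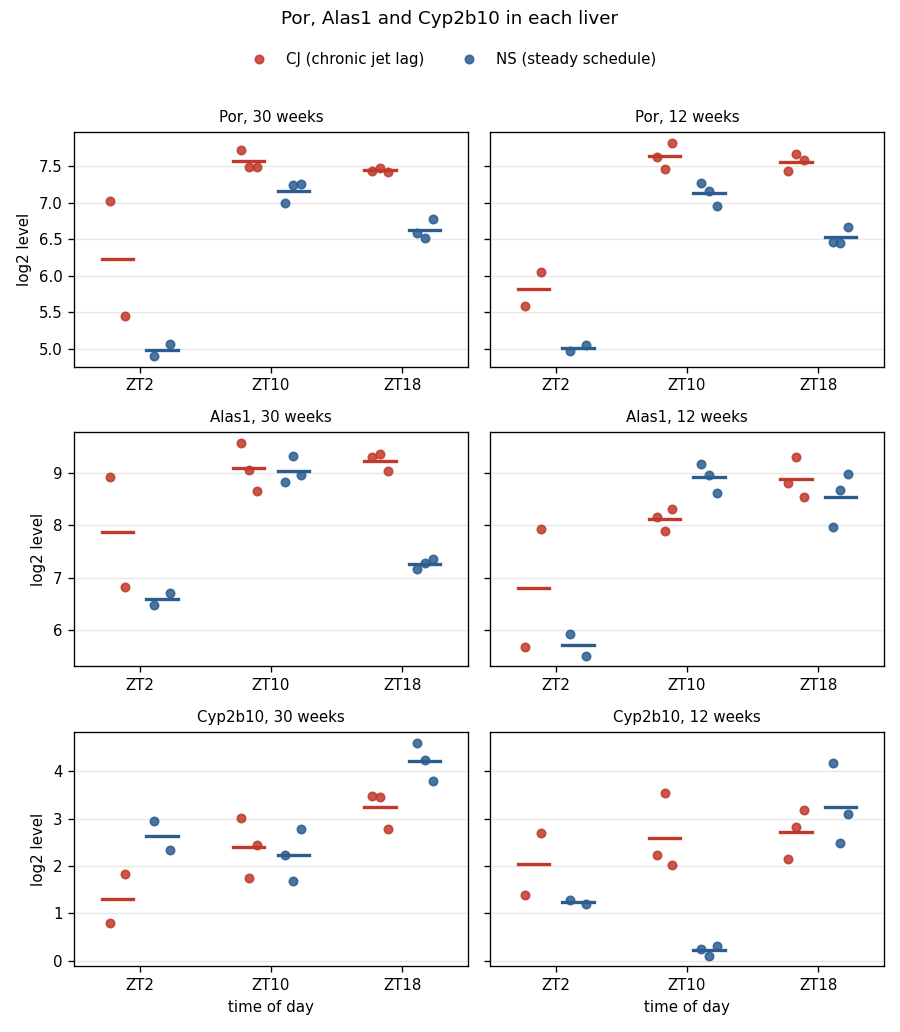
Log2 level of Por, Alas1 and Cyp2b10 (rows) in each liver by time of day, at 30 weeks (left) and 12 weeks (right), with CJ red and left of NS blue at each time. Each point is 1 mouse and each bar a group mean. Every CJ liver lies above every NS liver for Por at all times, Alas1 of NS livers drops between ZT10 and ZT18 at 30 weeks, and Cyp2b10 of NS livers is highest at ZT18.

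Alas1 encodes the enzyme that limits hepatic haem synthesis and is itself repressed by haem. At 30 weeks it was 8.93 and 6.82 in CJ and 6.47 and 6.71 in NS livers at ZT2, and 9.58, 9.07 and 8.67 in CJ and 8.84, 9.33 and 8.97 in NS livers at ZT10. At ZT18 it was 9.31, 9.36 and 9.03 in CJ and 7.16, 7.28 and 7.37 in NS livers. CJ livers were above NS livers at ZT2 and ZT18 and overlapped them at ZT10. The ZT18 difference was 1.72 ± 0.43 (limma, adjusted p = 0.0246), where 1.71% of all genes were higher. That call was lost without any 1 of the 6 livers compared (highest adjusted p = 0.121) and with the slide as a fixed block (1.37, adjusted p = 0.157). On the second probe it was 1.12 (adjusted p = 0.0364). Cell type markers separated the same 6 livers: Kupffer cell markers (5 of 5 tested) averaged 4.16 to 4.75 in CJ and 3.44 to 4.10 in NS livers, and pericentral hepatocyte markers (6 of 6 tested) 4.08 to 4.13 in CJ and 4.22 to 4.51 in NS livers. Their part in the difference was not tested. Over the 3 times CJ livers were higher by 1.1 ± 0.25 (2.15-fold; limma, adjusted p = 0.00955). This passed under all 12 alternatives (0.73 to 1.32) and in 31 of 32 fits, all but the fit without CJ ZT2 mouse 1, the liver that also stood high for Por (adjusted p = 0.0960).

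At 12 weeks Alas1 was 5.67 and 7.92 in CJ and 5.92 and 5.51 in NS livers at ZT2. It was 8.17, 7.90 and 8.32 in CJ and 9.18, 8.96 and 8.62 in NS livers at ZT10, with every CJ liver lower. At ZT18 it was 8.81, 9.31 and 8.54 in CJ and 7.98, 8.67 and 8.98 in NS livers, which overlapped. The difference of the 3-time mean was 0.21 ± 0.25 (adjusted p = 0.682). The schedule difference was larger at 30 than at 12 weeks by 0.89, which did not pass (limma, adjusted p = 0.271).

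The daily range of Alas1 was 1.24 in CJ livers (limma, adjusted p = 0.247) and 2.24 in NS livers (limma, adjusted p = 0.00765) at 30 weeks. The 30-week CJ value rested on the ZT2 pair: without mouse 1 it was 2.24 and passed (adjusted p = 0.0387), and without mouse 2 it was 0.24 (adjusted p = 0.987). At 12 weeks it was 2.04 in CJ livers (adjusted p = 0.0319) and 3.42 in NS livers (adjusted p = 9.98e-05). On the second probe the 12-week ranges were 1.28 in CJ (adjusted p = 0.0552) and 2.04 in NS livers (adjusted p = 0.000639). On the brighter probe the highest mean was at ZT18 in CJ and at ZT10 in NS livers at both ages. In CJ livers of 30 weeks these 2 times lay 0.13 apart on that probe, less than the larger SD of 0.46. There the second probe had its highest mean at ZT10 (3.89, against 3.77 at ZT18). The NS calls held in all 32 fits without 1 liver, and the 30-week one was lost with the slide as a fixed block (1.93, adjusted p = 0.0854). The CJ call at 12 weeks was lost without CJ ZT2 mouse 1, the lower of the 2 livers of that group (0.97, adjusted p = 0.396), without CJ ZT18 mouse 1 or 2, with the slide as a fixed block (1.96, adjusted p = 0.104), without a filter on dim probes (adjusted p = 0.0578) and without the acinar-rich arrays (0.71, adjusted p = 0.661). The acinar marker mean was 2.14 in CJ ZT2 mouse 1 and -2.17 in CJ ZT2 mouse 2. The second Alas1 probe followed the brighter one with r = 0.980 over the group means. The profile difference between schedules at 12 weeks had an adjusted p of 0.274, and of 0.0306 without CJ ZT2 mouse 1.

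Over the 12 groups, order and spread differed between members, each read on its brightest probe. Group means spanned 3.98 for Cyp2b10 (NS ZT18 of 30 weeks over NS ZT10 of 12 weeks), 3.52 for Alas1 (CJ ZT18 of 30 weeks over NS ZT2 of 12 weeks), and 2.65 for Por (CJ ZT10 of 12 weeks over NS ZT2 of 30 weeks). For Cyp2b9 the span was 2.24 (NS ZT18 of 30 weeks over NS ZT10 of 12 weeks) with the ZT10 values raised to the floor described for this gene, which gives no strict bound. They spanned 1.06 for Nr1i3 and 1.05 for Nr1i2. When groups were ordered by mean, 4 of the 11 neighbouring pairs of Por, 3 of Cyp2b10, 1 each of Alas1, Nr1i3 and Cyp3a11, and 0 of Nr1i2, Cyp2b9, Cyp2b13 and Cyp2c29 lay farther apart than the larger SD of the pair. For Por the 4 CJ means of ZT10 and ZT18 stood at the top, from 7.44 to 7.63, above all 8 other means.

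**Figure D4:**
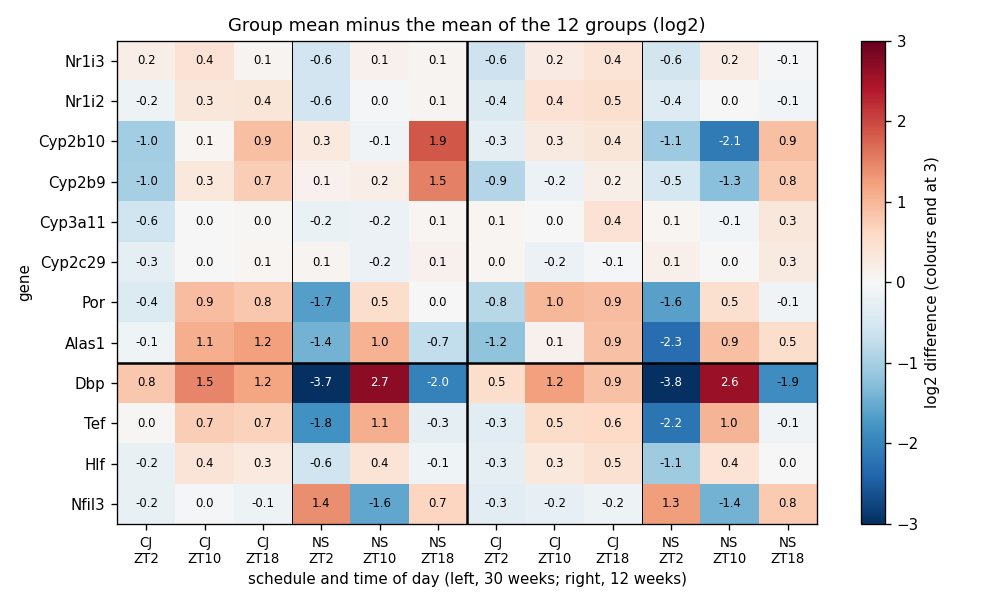
Group mean of each gene (rows) minus its mean over the 12 groups, in log2 units, by schedule and time of day (columns), 30 weeks left and 12 weeks right, CJ left of NS, with the PAR bZIP factors and Nfil3 below the line. Colours end at 3. Por and Alas1 are low in NS ZT2 livers, as are Dbp, Tef and Hlf, while Cyp2b10 and Cyp2b9 are highest in NS ZT18 livers.

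The PAR bZIP factors Dbp, Tef and Hlf, with their competitor Nfil3, formed a list of 4 genes, all tested. At 30 weeks time of day passed for 0 of 4 in CJ livers and 4 of 4 in NS livers, beside 3.62% and 11.2% of all genes. At 12 weeks it passed for 2 of 4 in CJ (Hlf and Tef) and 4 of 4 in NS livers, beside 5.70% and 17.4%. Group means of Dbp were 5.22, 5.89 and 5.60 at ZT2, ZT10 and ZT18 in CJ livers of 30 weeks and 0.74, 7.11 and 2.40 in NS livers. Tef was 6.11, 6.82 and 6.77 in the same CJ livers and 4.27, 7.17 and 5.79 in the NS livers. In NS livers of both ages Dbp, Tef, Hlf, Por, Alas1 and Nr1i3 shared the lowest group mean at ZT2 and the highest at ZT10. For Nr1i3 the later means lay close at 30 weeks (4.49 at ZT10 and 4.44 at ZT18). Nr1i2 had this order in NS livers of 12 weeks but not of 30 weeks. The 3-time mean in CJ livers was higher for Dbp (2.15 ± 0.25), Tef (0.83 ± 0.12) and Hlf (0.27 ± 0.08) at 30 weeks (SE; limma, adjusted p = 4.57e-05, 0.000180 and 0.0442). It was higher for the same 3 genes at 12 weeks, by 1.92 ± 0.25, 0.69 ± 0.12 and 0.37 ± 0.08 (adjusted p = 0.000181, 0.00210 and 0.0102). These are means of log2 levels, in which the low ZT2 level of NS livers counts as much as their ZT10 peak. At ZT10 of 30 weeks the group means of Dbp and Tef were lower in CJ than in NS livers (5.89 against 7.11, and 6.82 against 7.17). Whether means of unlogged levels differ between schedules was not tested. The median difference of the 4 genes was 0.55 at 30 weeks and 0.53 at 12 weeks. Of all genes, 1.77% were higher at 30 weeks and 2.15% at 12 weeks. The profile difference between schedules passed for Dbp, Tef and Nfil3 at both ages, whereas it passed for none of the 8 tested members. It passed for 1.97% of all genes at 30 weeks and 1.90% at 12 weeks.

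Of 5 other electron partners of P450s, all tested, 0 were higher and 3 lower in CJ livers at 30 weeks, and 1 was higher and 3 lower at 12 weeks. Among all genes tested, 1.77% were higher and 4.48% lower at 30 weeks, and 2.15% higher and 2.29% lower at 12 weeks. Cyb5r3, the reductase of cytochrome b5, was lower by 0.35 ± 0.06 at 30 weeks and by 0.36 ± 0.06 at 12 weeks (limma, adjusted p = 0.00114 and 0.00204). Cyb5b, the mitochondrial cytochrome b5, was lower by 0.28 ± 0.05 and 0.22 ± 0.05 (adjusted p = 0.00281 and 0.0224). Pgrmc2, a haem-binding membrane protein, was lower by 0.27 ± 0.06 and 0.33 ± 0.06 (adjusted p = 0.00520 and 0.00258). Cyb5a, the microsomal cytochrome b5, was higher at 12 weeks by 0.20 ± 0.05 (adjusted p = 0.0344). The median of the 5 was -0.27 at 30 weeks and -0.22 at 12 weeks, against -0.02 and 0.03 for all genes.

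Of 8 other genes of haem synthesis, all tested, 0 were higher and 1 lower in CJ livers at 30 weeks, Ppox, an oxidase near the end of the pathway (lower by 0.15 ± 0.04, adjusted p = 0.0328), beside 6.25% of all genes in either direction. At 12 weeks 0 passed, beside 4.44%. Time of day passed at 30 weeks for 1 of 8 in CJ livers, Uros (range 0.54), beside 3.62% of all genes, and for 2 of 8 in NS livers, Slc25a38 and Ppox (0.35 each), beside 11.2%. The 12-week count was 0 of 8 in CJ livers, beside 5.70%, and 3 of 8 in NS livers, Slc25a38, Ppox and Urod, beside 17.4%. The widest was Slc25a38, a mitochondrial carrier needed for haem synthesis, with a range of 0.58 in NS livers of 12 weeks (adjusted p = 0.000279) and its peak at ZT18. Of 10 genes of haem breakdown and transport, 1 was higher in CJ livers at 30 weeks, Slc48a1, which carries haem out of lysosomes (0.24 ± 0.05, adjusted p = 0.00580), and 0 passed at 12 weeks.

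Of 21 other P450 targets of CAR and PXR, 16 were tested. In CJ livers of 30 weeks 1 was higher and 1 lower, beside 6.25% of all genes in either direction. At 12 weeks 0 were higher and 1 lower, beside 4.44%. Cyp2c55 was lower at both ages, by 0.69 ± 0.18 at 30 weeks and 0.75 ± 0.18 at 12 weeks (limma, adjusted p = 0.0205 and 0.0194). Cyp4a14, which PPARA also induces, was higher at 30 weeks by 2.14 ± 0.53 (adjusted p = 0.0160). Cyp2a4, a close copy of Cyp2a5, varied over the day in all 4 sets, with ranges of 1.52 in CJ and 1.90 in NS livers at 30 weeks and 1.11 in CJ and 2.16 in NS livers at 12 weeks (adjusted p at most 0.00434). Its peak was at ZT18 in CJ and at ZT10 in NS livers, and the profile difference passed at 12 weeks (1.38, adjusted p = 0.0274).

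Phase 2 enzymes and other targets formed a list of 24 genes, of which 22 were tested. In CJ livers of 30 weeks 2 were higher and 5 lower, with a median of -0.24, beside 1.77% and 4.48% of all genes. At 12 weeks 2 were higher and 2 lower, with a median of -0.03, beside 2.15% and 2.29% of all genes. Tsku, a secreted proteoglycan, was higher by 0.83 ± 0.15 at 30 weeks and 0.62 ± 0.15 at 12 weeks (limma, adjusted p = 0.00123 and 0.0192). At 30 weeks Gstm2 was lower by 0.56 ± 0.15 and Gstt1 by 0.40 ± 0.08, both glutathione transferases (adjusted p = 0.0255 and 0.00553), and Ephx1, an epoxide hydrolase, was higher by 0.47 ± 0.08 (adjusted p = 0.000844). At 12 weeks Gstm3 was lower by 0.37 ± 0.07 and Gsta4 by 0.33 ± 0.07 (adjusted p = 0.00616 and 0.00929), and Ugt2b34, a glucuronosyltransferase, was higher by 0.18 ± 0.05 (adjusted p = 0.0267).

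Time of day passed at 30 weeks for 11 of these 22 genes in CJ livers, beside 3.62% of all genes, and for 3 of 22 in NS livers, beside 11.2%. The 12-week count was 3 of 22 in CJ livers, beside 5.70%, and 10 of 22 in NS livers, beside 17.4%. The widest in CJ livers of 30 weeks were Gsta1 (2.67, adjusted p = 0.000135) and Gsta2 (1.79, adjusted p = 0.00256), near-identical genes that 1 probe may not separate, and both peaked at ZT18. Sult5a1 (1.31) and Gsta4 (0.89) came next. In NS livers of 30 weeks the genes were Tsku (1.36), Fmo5 (1.03) and Sult1d1 (0.71). At 12 weeks they were Tsku (2.26), Gstm1 (0.57) and Fmo5 (0.52) in CJ livers, and the widest in NS livers were Sult1e1 (2.61), Tsku (1.89), Sult5a1 (1.41) and Fmo5 (0.95). The difference of the profiles between schedules passed for 4 of 22 at 30 weeks (Fmo5, Gsta1, Gstm1 and Gstm3), beside 1.97% of all genes. At 12 weeks it passed for 1 of 22 (Fmo5), beside 1.90%.

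Of 20 receptor partners and coregulators, 1 was higher and 1 lower in CJ livers at 30 weeks, Hnf4a (0.27 ± 0.08, adjusted p = 0.0354) and Hsp90ab1 (lower by 0.32 ± 0.07, adjusted p = 0.00759). For the schedule differences of all lists in this paragraph, the share over all genes was 6.25% at 30 weeks and 4.44% at 12 weeks. At 12 weeks Rxrb, a partner of CAR and PXR, was higher by 0.21 ± 0.06 (adjusted p = 0.0369), and 0 of 20 were lower. Of 8 transporters induced through CAR or PXR, 0 were higher and 1 lower at 30 weeks (Slco2b1, by 0.18 ± 0.05, adjusted p = 0.0344), and 0 passed at 12 weeks. Abcb1a, a drug efflux pump, varied over the day in all 4 sets, with ranges from 1.27 to 1.47. Since Cyp2b9 and Cyp2b13 differ between sexes, sex-biased lists were read too. Of 12 female-predominant genes 5 were tested and 0 differed between schedules at either age. Of 12 male-predominant genes 11 were tested: Elovl3 was lower in CJ livers at 30 weeks by 1.83 ± 0.30 (adjusted p = 0.000701), and Cyp7b1 was higher at 12 weeks by 0.57 ± 0.14 (adjusted p = 0.0214).

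Across the 12 group means, the 3 genes most like each member among 13242 candidates were named by Pearson's r, as a description, since all genes were read on the same arrays. St3gal5 (0.981), Timm8a1 (0.977) and Usp2 (0.970) were most like Por, and Cdv3 (0.981), Espn (0.972) and Abcb9 (0.964) most like Alas1. Fcgrt (0.967), Slc22a5 (0.957) and Dcun1d3 (0.941) were most like Nr1i3, and Fkbp5 (0.970), St3gal5 (0.969) and Zfyve9 (0.957) most like Nr1i2. Serinc3 (0.941), Uck1 (0.931) and Tmem109 (0.921) were most like Cyp2b10, and Nat8 (0.927), Zfp507 (0.906) and Pole4 (0.895) most like Cyp2b9. Epb41l2 (0.936), Cyp3a16 (0.932) and Pmpcb (0.929) were most like Cyp3a11, where Cyp3a16 is a close relative and binding of its probe to Cyp3a11 RNA was not tested. Gnpat (0.948), Tmem135 (0.938) and Cps1 (0.927) were most like Cyp2c29. Among the members themselves r was 0.931 between Por and Nr1i2, 0.894 between Por and Alas1, and 0.890 between Por and Nr1i3, while Cyp2b10 had r = 0.189 with Por and 0.0823 with Nr1i3.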

How the data were processed

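Liver RNA of 32 mice was measured on 32 one-colour arrays (62976 spots, 3671 of them controls). Per the file headers, the deposited spot intensities are processed signals of Agilent Feature Extraction 11.0.1.1, already background-subtracted; the submitters' processing notes name version 9.1. A further deposited table gives the authors' log2 values for 15148 probes in 16795 rows, normalised and corrected for batch by a method not given in the sources used here, which served as an alternative. All 32 columns matched the array of their own sample most closely (lowest r = 0.992).

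Control and outlier spots were left out, spots of a probe were averaged, and log2 of the signal minus the array's 75th percentile was used. That percentile lay at signals of 111 to 269, and 24186 to 32338 probes per array were well above background. The number of arrays limits the precision. Probes were named through RefSeq identifiers (GRCm38.p6), which gave 26582 probes a symbol and left 29099 unnamed here. A gene was tested on its brightest probe if every array of some group had it well above background (30485 probes, 23107 genes). Models were fitted with limma 3.58.1 in R 4.3.3 with 12 groups and the slide (8 slides of 4 arrays) as a random block (correlation 0.254). p-values were adjusted by Benjamini-Hochberg within each of 17 comparisons, at a threshold of 0.05. For 121 genes outlier spots left missing values, and those arrays were dropped for that gene. The methods were tested on simulated data.

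Replicates are mice with numbers of their own. Numbers shared between groups did not pair mice. Alternatives were normexp background correction, quantile normalisation, the authors' table, no filter on dim probes, other treatments of slide and replicate number, the mean of a gene's probes, marker covariates and leaving out each mouse. Leaving out arrays whose acinar marker mean was above 0, leaving out all ZT2 mice, and reading Nr1i3, Cyp3a11 and Alas1 on the dimmer of their 2 probes were chosen after seeing the data. Without the acinar-rich arrays a single liver was left in CJ ZT2, CJ ZT10 and NS ZT18 of 12 weeks and in CJ ZT10 of 30 weeks. The files hold no mean signal column, so normexp (offset 50) used the median signal. The members, the gene lists and the tests were chosen with earlier results of these data known. All 9 members are named, and of each list, in the comparisons described, up to 4 genes with the largest change or range among those that passed. One gene of the haem synthesis list is not reported here.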

Additional observations from a re-analysis of the deposited data

Results flagged for a closer look

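Cyp2b10 at ZT2 stood out because the livers of the ages moved in opposite directions between schedules. At 30 weeks both CJ livers (0.80 and 1.82) lay below both NS livers (2.94 and 2.34), and the plain means differed by -1.33. At 12 weeks both CJ livers (1.39 and 2.70) lay above both NS livers (1.28 and 1.20), and the plain means differed by 0.80. The difference between ages at ZT2 was not tested, and each group held 2 mice. At ZT2 of 30 weeks the muscle marker mean was between -4.38 and -4.14 in CJ livers, and -4.09 and 0.40 in NS livers. At 12 weeks it was between -3.52 and -1.28 in CJ livers and between -2.94 and -2.33 in NS livers. In the 30-week livers hepatocyte markers averaged 8.37 to 8.45 in CJ and 8.69 to 8.70 in NS livers. Cholangiocyte markers averaged -2.39 to -1.94 and -1.50 to -1.31, and Kupffer cell markers 3.98 to 4.13 and 3.70 to 3.80, while pericentral markers overlapped. In the 12-week livers pericentral hepatocyte markers averaged 4.38 to 4.39 in CJ and 4.08 to 4.13 in NS livers, while hepatocyte markers overlapped. Their part in the difference was not tested.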

How the results depend on the processing

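The number of the 8 tested genes that passed moved by over 1.5 times under some alternatives, whose cause was not tested where arrays or genes were not removed. With the slide as a fixed block, time of day passed for 1 in CJ livers of 30 weeks, 2 in CJ and 3 in NS livers of 12 weeks, the 12-week schedule difference for 2 and the age difference in CJ livers for 0. Without the acinar-rich arrays, which left 22, these counts were 0, 0, 3, 0 and 0. In the authors' deposited table, time of day passed for 4 in CJ and 6 in NS livers of 30 weeks, and the 12-week schedule difference for 3. For time of day in CJ livers of 30 weeks, 1 passed with no filter on dim probes, with no slide block, with the replicate block and with the mean of all probes, and 0 with the marker covariates. Over all genes these were 568 of 37208, then 709, 769, 821 and 229 of 23107. The age difference in CJ livers passed for 0 with no filter, with no slide block, with the marker covariates and without the ZT2 mice. Over all genes these were 977 of 37208, then 559, 1057 and 585 of 23107. The 12-week schedule difference passed for 3 with normexp, 2 with quantile normalisation and 2 without the ZT2 mice; Cyp2b10 was among those under normexp (0.77, adjusted p = 0.0431) and quantile normalisation (0.88, adjusted p = 0.0470), and Cyp2c29 under normexp, the fixed slide block and the authors' table. That schedule difference passed for 1368, 1224 and 482 of all 23107 genes with normexp, quantile normalisation and without the ZT2 mice. It passed for 2 members on the dimmer probes, where Cyp3a11 turned to -0.49 (adjusted p = 0.0412), beside 1027 of all 23107 genes.

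Leaving out each liver in turn, with the slide correlation of all arrays, time of day passed for 1 to 2 in CJ and 3 to 5 in NS livers of 30 weeks, and for 1 to 4 in CJ and 4 to 5 in NS livers of 12 weeks. The profile difference passed for 0 to 1 at 30 weeks and 0 to 2 at 12 weeks, the schedule difference for 1 to 4 at 30 weeks and 1 to 3 at 12 weeks, and the age difference for 0 to 3 in CJ and 1 to 1 in NS livers. A group left with 1 mouse was assumed to vary like the others. No value that passed in these fits changed sign. The replicate block gave 4 at 30 weeks for NS time of day and for the schedule difference, beside 2586 and 1377 of all 23107 genes. Same-numbered mice had a mean correlation of -0.019 over 160 pairs, against 0.010 over 308 other pairs, and 7 of 32 mice correlated best with their own number. Cyp2b9 and Cyp2b13 were limited by signal near background.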
